A study of Mus musculus with 4 samples.

Results

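The genes described here are 32 markers of brain blood vessels: 18 of endothelial cells, which line the vessel, and 14 of mural cells, which wrap it. The mural genes were divided into 8 of pericytes and 6 of smooth muscle. Members were found by their symbols among the 32531 gene names of the count files, and all 32 were present, had counts in every library and passed the filter on low counts. They were read from cerebral cortex of adult mice of the line Cbln1-EGFP-Rpl10a NIDA030, in which a ribosomal protein fused to EGFP is driven by Cbln1 regulatory sequence. The IP group held 2 libraries of ribosome-bound RNA captured with an anti-EGFP antibody, a method called translating ribosome affinity purification (TRAP). The input group held 2 libraries of total RNA from the same kind of cortex, and the libraries of each group are numbered 2 and 4. Every library carried the transgene, so no tag-free control was part of the comparison. The capture follows the cells that express the driver, and the series' design text speaks of neurons.

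Endothelial cells of brain capillaries are sealed by tight junctions and carry transporters that select what enters the tissue, which together form the blood-brain barrier. They receive growth signals through receptors for vascular endothelial growth factor (VEGF) and angiopoietin. Pericytes sit on capillaries within the basement membrane and depend on platelet-derived growth factor from the endothelium, and smooth muscle cells of arteries and arterioles contract through actin, smooth muscle myosin and their regulators. Since the tissue was measured in bulk, a low level from fewer cells of a type and one from less RNA per cell cannot be told apart. In the comparison of IP with input, ribosome-bound RNA is set against total RNA. Capture of RNA from cells without the tag and loading of a transcript on ribosomes cannot be told apart there.

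Gene counts came to between 39750468 and 47567384 per library, and 3 counts, taken as the limit that a count of 0 allows, corresponded to 0.0660 to 0.0790 CPM. CPM is the count per 1000000 gene counts of the library, after scaling by trimmed mean of M values (TMM), and this limit covers counting error only. The sample descriptions put the IP libraries on lane 1 and the inputs on lane 2. An effect of lane and one of capture cannot be told apart. Whether the libraries of a group come from different animals is not in the labels. The p-values therefore reflect spread, pooled largely over genes, among these libraries alone, which may be technical. Neuron markers stood higher in IP: 9 of 12 rose and 0 fell by the edgeR quasi-likelihood test (1 fell at an unadjusted p of 0.05, and 0 fell with DESeq2), with summed levels of 37393 and 35888 CPM in IP 2 and IP 4 against 17223 and 18034 CPM in input 2 and input 4. Snap25, a synaptic fusion protein gene, carried most of these sums, at 27046 and 25461 CPM against 10531 and 10912 CPM, and the median log2 fold change over the 12 was 0.68. All 12 had a mean of at least 5 CPM, where 34.3% of all genes rose and 20.5% fell. Over all genes tested the shares were 23.4% and 22.4%.

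Sequences upstream of the gene starts were read first. RefSeq windows on GRCm38.p6, from 250 bases before to 50 after the annotated start, were matched for 21 of the 32 members. The core of the binding site of ETS factors, GGAA on either strand, was searched because ETS factors act in endothelial genes, and it was present in 10 of the 12 endothelial genes with a window. Nearly every window has it, 96.0% of all 32851, and 8 of the 9 mural genes with a window do too. The CArG box, bound by serum response factor in contractile genes, was searched as CCWWWWWWGG (W is A or T) without mismatch. It was present in 1.63% of all windows and in 1 of the 4 smooth muscle genes with a window, Myl9. Variants of this pattern were not searched, so a window without a match may still hold one. The following stretches end next to the annotated gene start and run 5′ to 3′ on the gene's strand. They were picked by hand from genes that moved (Slc2a1, Itm2a, Myl9) and genes of the same classes that did not pass (Cldn5, Kdr, Cnn1). Egfl7 and Abcb1a, which also moved, are not shown because their windows do not lie at the annotated gene start. Capitals mark the ETS core in the endothelial genes and the CArG box in the smooth muscle genes, and a stretch without capitals holds no match to its class's motif within the bases shown.
Slc2a1, chr4:119108591-119108710, plus strand: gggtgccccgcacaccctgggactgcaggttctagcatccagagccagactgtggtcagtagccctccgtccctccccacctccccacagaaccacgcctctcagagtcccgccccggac
Itm2a, chrX:107403377-107403496, minus strand: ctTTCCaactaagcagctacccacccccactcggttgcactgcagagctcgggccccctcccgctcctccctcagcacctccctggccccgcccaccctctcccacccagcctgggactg
Cldn5, chr16:18776727-18776846, plus strand: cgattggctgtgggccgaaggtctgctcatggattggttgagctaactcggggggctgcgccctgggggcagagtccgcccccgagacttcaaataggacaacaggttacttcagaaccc
Kdr, chr5:75978459-75978578, minus strand: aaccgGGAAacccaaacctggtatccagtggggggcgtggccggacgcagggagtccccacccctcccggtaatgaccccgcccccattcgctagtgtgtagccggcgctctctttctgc
Myl9, chr2:156775240-156775419, plus strand: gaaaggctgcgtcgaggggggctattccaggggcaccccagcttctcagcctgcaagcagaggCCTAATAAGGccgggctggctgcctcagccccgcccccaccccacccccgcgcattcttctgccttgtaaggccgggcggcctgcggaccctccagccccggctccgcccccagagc
Cnn1, chr9:22099096-22099215, plus strand: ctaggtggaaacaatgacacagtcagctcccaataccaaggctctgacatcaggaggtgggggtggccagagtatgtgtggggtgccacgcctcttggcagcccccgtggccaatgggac

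Of the 32 members, 5 rose in IP, 3 fell and 24 did not pass (edgeR quasi-likelihood test, p adjusted by Benjamini-Hochberg over all genes and under 0.05). Among all 16600 genes tested, 23.4% rose and 22.4% fell, so the 25.0% of members called in either direction lay below the 45.8% of all genes. The genes that rose were the endothelial genes Bsg, Itm2a, Egfl7 and Slc2a1 and the smooth muscle gene Myh11. Those that fell were the endothelial gene Abcb1a, the pericyte gene Higd1b and the smooth muscle gene Myl9. The IP libraries were both above the inputs in 5 members and both below them in 16, against 35.3% and 37.8% of all genes. That left 65.6% of members without overlap, against 73.0% of all genes. The median log2 fold change, IP minus input, was -0.35 over the members and -0.04 over all genes tested. Below 5 CPM, where most members lie, it was -0.44 over the members and -0.52 over all genes.

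Level set much of what could be seen. Of the members, 24 had a mean below 5 CPM and 9 a mean below 1 CPM, and the median mean level was 1.82 CPM against 12.4 CPM over all genes tested. Among the 24 low members, 2 rose and 2 fell, where 3.77% of all genes below 5 CPM rose and 25.9% fell (16.7% of these members called, against 29.7% of genes). Among the 8 members of at least 5 CPM, 3 rose and 1 fell, where 34.3% of all such genes rose and 20.5% fell (4 of these 8 members called, against 54.8% of genes). Of these 8, 37.5% did not overlap between the groups, against 78.1% of such genes. In simulated counts, the test found 4% of genes changed 1.5-fold and 64% of genes changed 2-fold at means from 0.5 to 5 CPM, and 38% and 98% of such genes from 5 CPM upward (50 genes each). A 1.5-fold change was therefore mostly not detectable in the low members. Some low members estimated beyond 2-fold did not pass either, with log2 fold changes of -1.11 (Pecam1), -1.35 (Emcn), -1.79 (Ndufa4l2) and -1.03 (Des). Myh11, Abcb1a and Higd1b passed, at 1.39, -1.38 and -2.02. An estimate is not a known change, and Ndufa4l2, at a mean of 0.306 CPM, lay below the simulated range. The simulation gave every gene the same spread beyond counting error, so its shares may overstate what the test can find in low members.

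**Figure D1:**
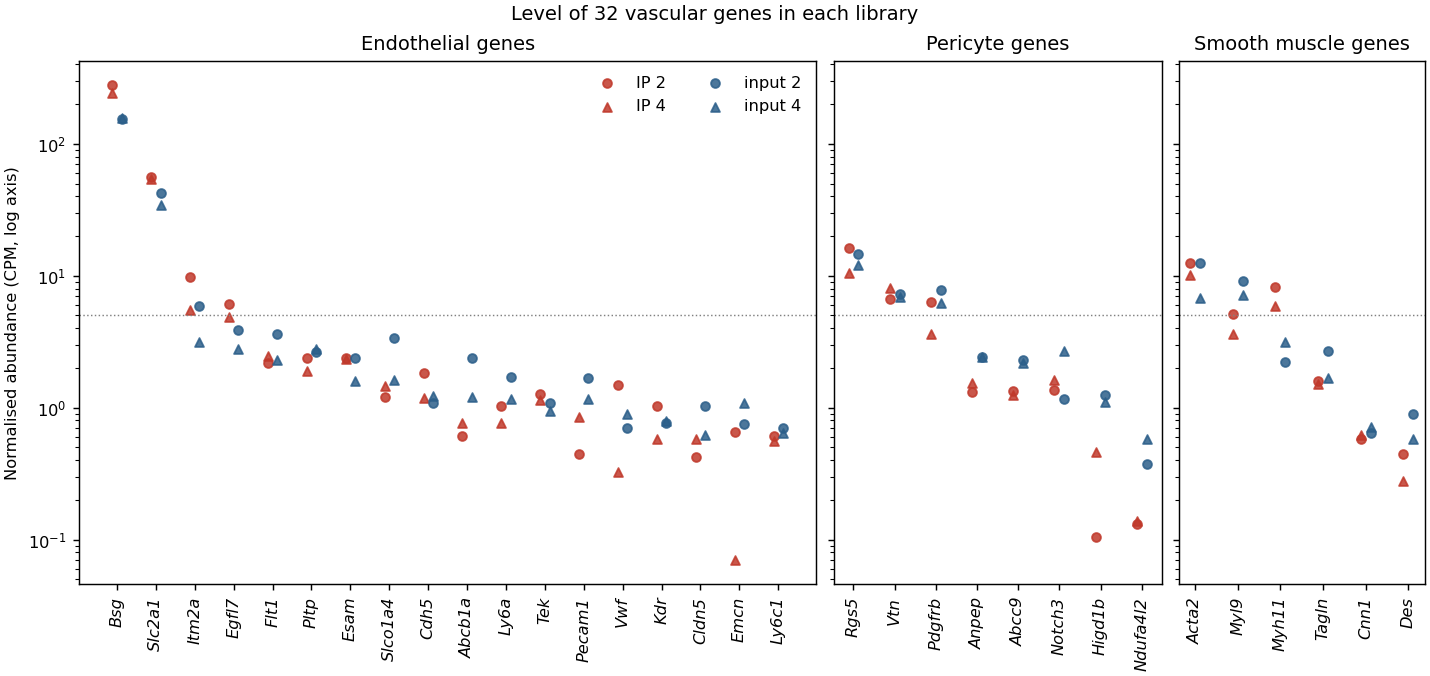
Normalised abundance (CPM, log axis) of each member in IP 2, IP 4, input 2 and input 4, with genes ordered by mean within endothelial, pericyte and smooth muscle genes and a dotted line at 5 CPM. Bsg and Slc2a1 stand far above the other endothelial genes, and most members lie below 5 CPM in every library.

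Levels of different genes were compared per kilobase of exon, with the exons of all transcripts of a gene joined. Joined exons can exceed the longest protein-coding transcript, as in Egfl7 (3581 against 1391 bases) and Flt1 (13504 against 6895). For Cldn5 both were 1416, so the order depends partly on this choice of length. On this scale Bsg led in both groups with a mean of 144 CPM per kb in IP and 85.6 in input. Slc2a1 came next with means of 15.74 and 10.99 CPM per kb. In input the order went on with Myl9 (6.99), Acta2 (4.38), Vtn (3.50), Rgs5 (2.93) and Itm2a (2.59), and the other 25 members lay at 1.40 CPM per kb or below. Acta2 and Vtn overlapped between the input libraries, as did Rgs5 and Itm2a. Classical endothelial markers lay from the middle to the bottom of that order: mean input levels were 0.585 CPM per kb for Cldn5, at place 16, 0.274 for Cdh5, 0.227 for Pecam1, 0.220 for Flt1, 0.215 for Tek and 0.0861 for Kdr. Neighbours such as Pecam1, Flt1 and Tek overlapped between the input libraries. Myh11 moved from place 20 in input, at 0.353 CPM per kb, to place 9 in IP, at 0.927 CPM per kb.

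Among endothelial genes, 4 of 18 rose and 1 fell, where 23.4% of all genes tested rose and 22.4% fell. The 4 that rose include the most abundant members. Bsg encodes basigin, a partner of lactate transporters that many cell types make. It stood at 280.0 and 243 CPM in IP 2 and IP 4 and at 154 and 156 CPM in the inputs. Both IP libraries were well above the inputs, with a log2 fold change of 0.75 ± 0.10 (SE; adjusted p = 3.87e-06, edgeR). Slc2a1, the glucose transporter of the barrier that glia also make, stood at 56.5 and 53.8 CPM in IP and 42.7 and 34.4 CPM in input, again without overlap. Its log2 fold change was 0.52 ± 0.12 (SE; adjusted p = 0.00178, edgeR), and with library sizes alone in place of TMM it was 0.26 and did not pass (adjusted p = 0.0847).

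Itm2a, a membrane protein gene, stood at 9.74 and 5.53 CPM in IP and 5.87 and 3.17 CPM in input, so the groups overlapped, and in each group library 2 was the higher. Its log2 fold change of 0.75 (SE 0.29) passed narrowly (edgeR adjusted p = 0.0405). It no longer passed when IP 2 was left out (adjusted p = 0.407), without input 4 (adjusted p = 0.290) and with DESeq2 (adjusted p = 0.0630). Egfl7, an endothelial secreted factor whose gene also holds the microRNA gene Mir126a, stood at 6.05 and 4.86 CPM in IP and 3.89 and 2.80 CPM in input, without overlap. Its log2 fold change was 0.70 ± 0.26 (SE; adjusted p = 0.0358, edgeR), and this call too was lost without IP 2 (adjusted p = 0.142), without input 4 (adjusted p = 0.238) and with DESeq2 (adjusted p = 0.0582). Other genes overlap 11.2% of the exonic bases of Egfl7, which makes its count uncertain to that extent.

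The summed endothelial level rested on Bsg. It was 369.8 and 322 CPM in IP and 230.4 and 215 CPM in input, and Bsg alone gave between 66.8% and 75.7% of it. Without Bsg and Slc2a1 the other 16 endothelial genes summed to 33.3 and 25.4 CPM in IP 2 and IP 4 and to 33.7 and 24.01 CPM in input 2 and input 4. Those sums overlapped, and in both groups library 2 was the higher. The rise of neuron markers in IP stands beside the rise of Bsg, Slc2a1, Itm2a and Egfl7, and its part in these results was not tested.

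Genes of endothelial junctions did not pass with all 4 libraries and TMM. Cldn5, the claudin of barrier tight junctions, stood at 0.421 and 0.578 CPM in IP and 1.03 and 0.624 CPM in input, from 16, 25, 47 and 27 counts. Its log2 fold change was -0.72 with a 95% interval from -2.01 to 0.56, which spans values on either side of 0. Pecam1, an adhesion molecule of endothelial contacts, stood at 0.447 and 0.856 CPM in IP and 1.67 and 1.16 CPM in input, with the IP libraries below the inputs and a log2 fold change of -1.11 (edgeR adjusted p = 0.0964). Its value ranged from -1.65 to -0.71 with each library left out, and it passed without IP 4 (adjusted p = 0.0387) and with library sizes alone (adjusted p = 0.0377). Cdh5, the cadherin of endothelial adherens junctions, had a log2 fold change of 0.38 (95% interval -0.57 to 1.32), and Esam, a further junction adhesion molecule, one of 0.25 (95% interval -0.50 to 1.003). The junction genes thus lay on either side of 0.

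Genes of vascular growth factor receptors did not pass. Flt1, a VEGF receptor, stood at 2.18 and 2.48 CPM in IP and 3.63 and 2.31 CPM in input, which overlapped. Kdr, the main signalling VEGF receptor, stood at 1.03 and 0.578 CPM in IP and 0.770 and 0.786 CPM in input, so that the IP libraries lay on either side of the inputs. Tek, the angiopoietin receptor, stood at 1.26 and 1.13 CPM in IP and 1.08 and 0.947 CPM in input, slightly higher in IP. The log2 fold changes were -0.35 for Flt1, 0.04 for Kdr and 0.24 for Tek, with 95% intervals of -1.05 to 0.35, -1.18 to 1.26 and -0.77 to 1.25. These intervals span both directions.

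Of the other endothelial transporter genes, Abcb1a fell and Slco1a4 did not pass. Abcb1a, the efflux pump P-glycoprotein, stood at 0.605 and 0.763 CPM in IP and 2.38 and 1.20 CPM in input, and fell with a value of -1.38 ± 0.50 (SE; adjusted p = 0.0289, edgeR). The IP libraries lay below the inputs, but input 2 was 1.98-fold above input 4, and without input 2 the log2 fold change was -0.80 and did not pass (adjusted p = 0.472). Nor did it pass without IP 2 (adjusted p = 0.0680). Slco1a4, an organic anion transporter, showed the same order at 1.21 and 1.46 CPM in IP and 3.39 and 1.62 CPM in input, where the value of -0.91 did not pass (adjusted p = 0.0823). It was -0.27 without input 2 (adjusted p = 0.771), and passed at -1.33 without input 4 (adjusted p = 0.0196) and with library sizes alone (adjusted p = 0.0232). The gene model Gm42686 overlaps 10.1% of the exonic bases of Abcb1a, and 6.62% of its transcript has a close match in other genes, mainly Abcb1b.

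The other 5 endothelial genes did not pass, with log2 fold changes from -1.35 to 0.15. Emcn, a surface sialoglycoprotein, was read from 25 and 3 counts in the IP libraries and from 34 and 47 in the inputs. Its value of -1.35 became -3.65 without IP 2 and passed there (edgeR adjusted p = 0.00270). Vwf, von Willebrand factor, stood at 1.47 and 0.324 CPM in the IP libraries, a spread that held both inputs, and its value of 0.15 became -1.28 without IP 2. Ly6a and Ly6c1, anchored surface antigens of brain endothelium, had values of -0.67 and -0.22. Of the Ly6c1 transcript, 97.7% matched Ly6c2 at 95% identity or more over at least 50 bases, so the counts of Ly6c1 are uncertain. Pltp, a phospholipid transfer protein, had a value of -0.36, and Ctsa, itself higher in IP by 0.99, shares 19.3% of the exonic bases of Pltp.

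Among pericyte genes, 0 of 8 rose and 1 fell (edgeR, with 0 higher and 2 lower at an unadjusted p of 0.05, and 0 and 1 with DESeq2). Of these 8, 5 had a mean below 5 CPM, where 3.77% of all genes rose and 25.9% fell, and the counts of these 5 lay near those shares. Higd1b, a hypoxia-inducible domain family gene used as a pericyte marker, was read from 4 and 20 counts in the IP libraries and from 57 and 48 in the inputs. It stood at 0.105 and 0.463 CPM in IP and 1.25 and 1.11 CPM in input, and fell with a value of -2.02 ± 0.68 (SE; adjusted p = 0.0197, edgeR). Both IP libraries were far below both inputs, and the size moved with IP 2 and IP 4: the log2 fold change was -1.33 without IP 2 (adjusted p = 0.117) and -3.44 without IP 4, and the call was also lost without input 2 (adjusted p = 0.116) and without input 4 (adjusted p = 0.0694). Ndufa4l2, a relative of a respiratory chain subunit, stood at 0.132 and 0.139 CPM in IP and 0.374 and 0.578 CPM in input, the lowest member on the CPM scale, with a value of -1.79 that did not pass (adjusted p = 0.0761).

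The abundant pericyte genes overlapped between the groups. Rgs5, a regulator of G protein signalling, stood at 16.3 and 10.4 CPM in IP and 14.6 and 11.99 CPM in input, so the IP libraries enclosed the inputs. Its log2 fold change was 0.0023 with a 95% interval from -0.40 to 0.41. Vtn, vitronectin, stood at 6.71 and 8.05 CPM in IP and 7.31 and 6.89 CPM in input, with a value of 0.06 and an interval from -0.36 to 0.48. Pdgfrb, the receptor through which pericytes are recruited, stood at 6.37 and 3.59 CPM in IP and 7.86 and 6.17 CPM in input and overlapped only through IP 2. Its value of -0.50 did not pass (adjusted p = 0.122), but was -0.95 without IP 2 and passed there (adjusted p = 0.00279), as it did with library sizes alone (adjusted p = 0.0174), a stricter filter (adjusted p = 0.0334) and a replicate block (adjusted p = 0.0334).

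Abcc9, the regulatory subunit of the potassium channel of pericytes and smooth muscle, stood at 1.34 and 1.25 CPM in IP and 2.29 and 2.20 CPM in input. Anpep, aminopeptidase N, stood at 1.32 and 1.55 CPM in IP and 2.42 and 2.43 CPM in input. In both genes the libraries of a group were close and the groups were apart, with log2 fold changes of -0.79 and -0.76 and adjusted p of 0.104 and 0.107. With library sizes alone both passed, at adjusted p of 0.0318 and 0.0307. Notch3, the Notch receptor of mural cells, overlapped between the groups at 1.37 and 1.62 CPM in IP and 1.17 and 2.70 CPM in input.

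**Figure D2:**
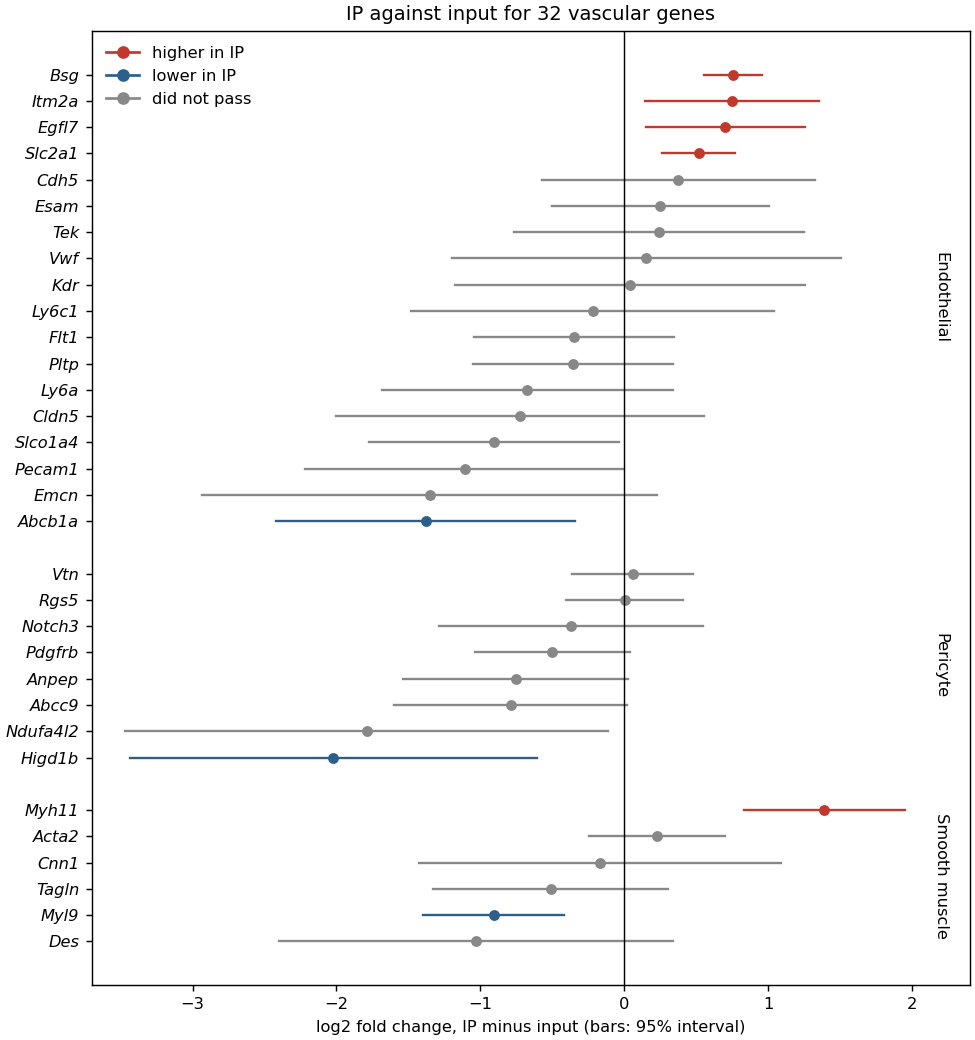
Log2 fold change of each member (IP minus input) with its 95% interval from the edgeR quasi-likelihood fit, ordered by value within endothelial, pericyte and smooth muscle genes. Red marks the 5 genes that rose, blue the 3 that fell and grey the 24 that did not pass, with the widest intervals at the least counted genes.

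Of the 6 smooth muscle genes 1 rose and 1 fell, where 23.4% of all genes tested rose and 22.4% fell. Both encode chains of the same kind of myosin. Myh11, the smooth muscle myosin heavy chain, stood at 8.21 and 5.88 CPM in IP 2 and IP 4 and at 2.22 and 3.14 CPM in input 2 and input 4, from 312, 254, 101 and 136 counts. Both IP libraries were well above both inputs, a 2.62-fold difference, or 1.39 ± 0.27 on the log2 scale (SE; adjusted p = 0.000302, edgeR). Myl9, the regulatory light chain that joins this myosin, went the other way, at 5.11 and 3.59 CPM in IP and 9.09 and 7.16 CPM in input. It was 1.87-fold lower in IP, or -0.91 ± 0.23 on the log2 scale (SE; adjusted p = 0.00372, edgeR), and the groups did not overlap. Each of these calls held with every library left out in turn, with values from 1.15 to 1.67 for Myh11 and from -1.16 to -0.66 for Myl9. No other annotated gene shares exonic bases with Myh11 or Myl9.

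The other contractile genes did not pass. Acta2, smooth muscle actin and the most abundant smooth muscle member, stood at 12.4 and 10.1 CPM in IP and 12.4 and 6.82 CPM in input, so that input 2 lay at the level of the higher IP library. Its value of 0.23 became 0.73 without input 2 and passed there (adjusted p = 0.0110). Tagln, the actin-binding transgelin, had a value of -0.51, Des, the intermediate filament desmin, one of -1.03, and Cnn1, calponin, one of -0.17. In all of these both IP libraries lay below both inputs. This order has no test, and 37.8% of all genes tested showed it. It was more frequent still among all genes below 5 CPM, where Tagln, Des and Cnn1 lie. An antisense gene and Pcsk7 overlap 67.9% of the exonic bases of Tagln, and with the strand setting of the counting unknown its counts are uncertain.

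Set side by side, endothelial genes had a median log2 fold change of -0.09 with 4 higher and 1 lower of 18. Mural genes had a median of -0.51 with 1 higher and 2 lower of 14, and the medians differed by 0.42. With each library left out the difference ranged from 0.24, without IP 2, to 0.57, and the endothelial median from -0.34 to 0.06, above 0 without IP 4 and without input 2. With library sizes alone the endothelial median was -0.35 and the mural median -0.76. Among genes below 5 CPM, where the median over all genes was -0.52, the 9 mural genes had -0.76 and the 15 endothelial genes -0.35. From 5 CPM upward, against 0.12 over all genes, the 5 mural genes had 0.0023 and the 3 endothelial genes 0.75. Within each library, the median log2 CPM of endothelial minus that of mural genes was -0.11 and -0.45 for IP 2 and IP 4 and -0.23 and -1.08 for the inputs, so the groups overlapped. Members are no replicates, so the difference has no test. Endothelial medians varied most between the inputs, at 2.01 CPM in input 2 and 1.21 CPM in input 4, whereas mural medians stood at 2.35 and 2.56 CPM. In IP the endothelial medians were 1.36 and 1.16 CPM and the mural medians 1.47 and 1.58 CPM, below both inputs for mural genes. With library sizes alone 1 endothelial gene rose and 3 fell, and 1 mural gene rose and 6 fell, while the median over all genes shifted by -0.26. With this scaling 12.96% of all genes rose and 35.6% fell.

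**Figure D3:**
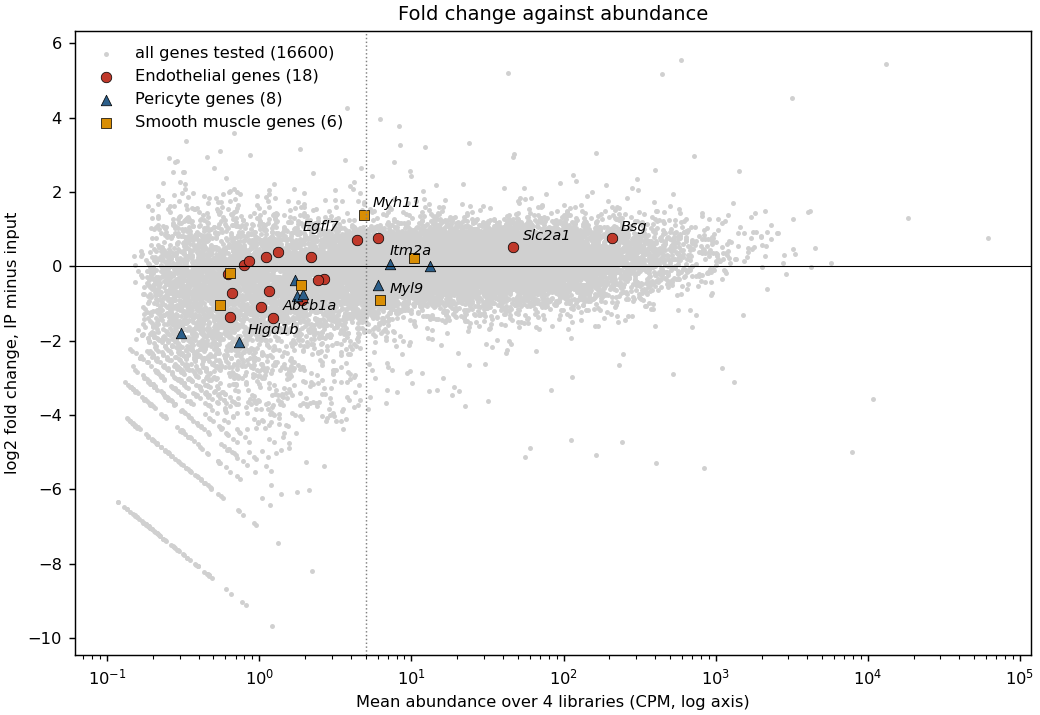
Log2 fold change (IP minus input) against mean abundance over the 4 libraries (CPM, log axis) for all 16600 genes tested in grey, with the 18 endothelial, 8 pericyte and 6 smooth muscle genes in colour, the called members named and a dotted line at 5 CPM. The members lie within the cloud of genes of like abundance, most of them to the left of the line.

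Leaving out each library showed which of the 8 called members stood on all 4. Bsg, Slc2a1, Myh11 and Myl9 passed in each of these fits, and Itm2a, Egfl7, Abcb1a and Higd1b did not. Fewer of all genes rose, and fewer fell, in each of these fits than with all 4 libraries, so the loss of calls was not particular to the members.

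**Figure D4:**
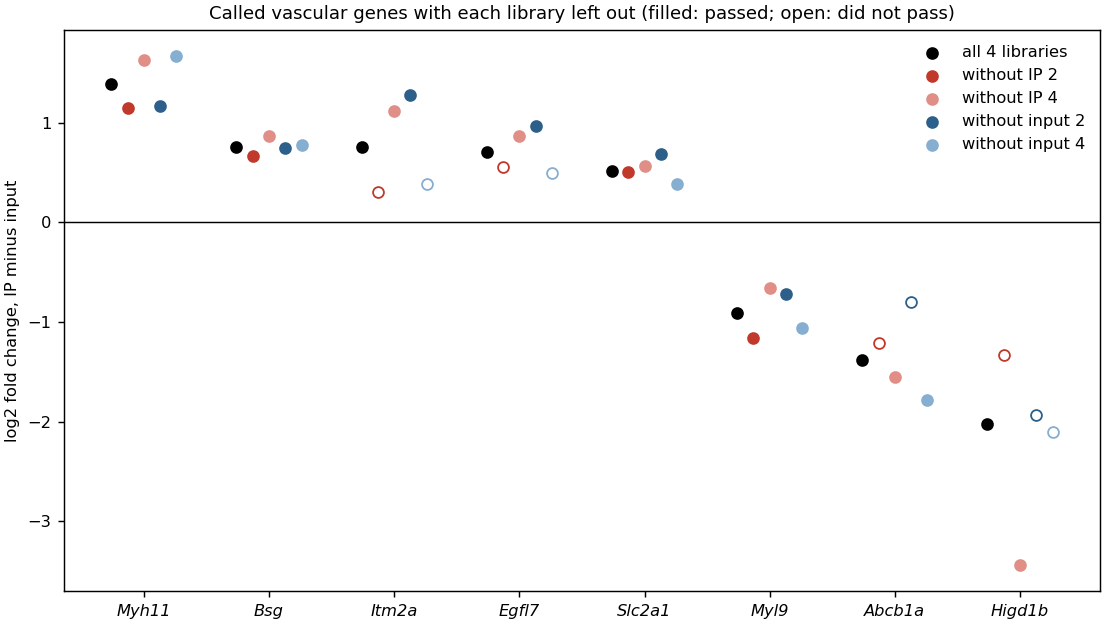
Log2 fold change (IP minus input) of the 8 called members with all 4 libraries and with each library left out, filled where the edgeR adjusted p was under 0.05 and open where it was not. Myh11, Bsg, Slc2a1 and Myl9 stay filled throughout, while Higd1b ranges from -3.44 to -1.33.

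The called members are spread over the genome (GENCODE vM21 on GRCm38, all protein-coding). Bsg lies on chromosome 10 from 79704491 to 79711969 (plus strand), and Slc2a1 on chromosome 4 from 119108711 to 119137983 (plus). Itm2a lies on chromosome X from 107397099 to 107403376 (minus), and Abcb1a on chromosome 5 from 8660077 to 8748575 (plus). Chromosome 2 holds Egfl7 from 26580014 to 26593120 and Myl9 from 156775420 to 156781658 (both plus). Higd1b lies on chromosome 11 from 102835849 to 102838040 (plus), and Myh11 on chromosome 16 from 14194535 to 14291372 (minus). Exons of 9 members share bases with another annotated gene.

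Other genes of the same cells moved in both directions. Counts in this and the following lists stand beside 23.4% of all genes that rose and 22.4% that fell. Below 5 CPM the shares were 3.77% and 25.9%, and from 5 CPM upward 34.3% and 20.5%. Of 19 further endothelial surface and signalling genes tested, 2 rose and 5 fell (median -0.58). S1pr1, the sphingosine phosphate receptor that astrocytes also make, stood at 43.6 and 42.9 CPM in IP and 77.3 and 75.4 CPM in input, with a value of -0.82 ± 0.10 (SE; adjusted p = 3.87e-06, edgeR). Ptprb, an endothelial phosphatase, fell by 1.11, and the scaffold gene Slc9a3r2 rose by 0.40. Of 14 endothelial transcription factor genes tested 0 rose and 3 fell, with Ets1 lower by 0.78 on the log2 scale, and at an unadjusted p of 0.05 the counts were 0 and 4, and with DESeq2 0 and 2. Of these 14, 12 had a mean below 5 CPM, and the counts lay near the shares of all genes at that level.

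Barrier genes were divided by role. Of 12 junction genes 2 rose and 1 fell: Jup, the plakoglobin of adherens junctions and desmosomes, rose by 0.82, and Jam2, a junction adhesion molecule, had a value of -0.65. Of 16 barrier transporter and receptor genes tested, 4 rose and 5 fell. The heavy and light chains of the large amino acid carrier, Slc3a2 and Slc7a5, rose by 0.85 and 0.59, whereas Slc22a8, an organic anion transporter, had a value of -0.80.

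Ligands and receptors of vascular signalling were mixed as well. Of 11 VEGF and angiopoietin pathway genes tested 1 rose and 2 fell. Vegfa, the main growth factor of endothelium, stood at 23.1 and 25.4 CPM in IP and 48.3 and 50.8 CPM in input, a value of -1.03 (SE 0.12, edgeR adjusted p = 1.29e-06), and Vegfb had a value of -0.87. Nrp1, a co-receptor shared with semaphorins, rose by 0.74. In the PDGF, TGF-beta and endothelin list 0 of 14 rose and 5 fell (0 and 7 at an unadjusted p of 0.05, 0 and 4 with DESeq2), among them the TGF-beta receptor genes Tgfbr2 at -0.89 and Tgfbr1 at -0.69 and their inhibitor Smad7 at -0.74.

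Of 10 vascular Notch genes tested 2 rose and 1 fell, with the target Hes1 at 0.59, the ligand Jag2 at 0.57 and the transcription factor Rbpj at -0.56. In the Wnt list of the barrier 4 of 13 rose and 4 fell. Lef1, a Wnt transcription factor that neurons also express, rose by 2.43, whereas Reck and Tspan12, which act with Wnt receptors of the endothelium, had values of -1.17 and -0.92. All values in these lists are log2 fold changes, and every gene named with a direction passed the edgeR test.

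Among 15 further pericyte genes tested 4 rose and 2 fell (median -0.26). Cspg4, a proteoglycan of pericytes that oligodendrocyte precursors also make, stood at 15.9 and 22.6 CPM in IP and 5.46 and 3.97 CPM in input, a value of 2.03. Gucy1b3, a subunit of the nitric oxide receptor that neurons also express, rose by 1.03, and Zic1 had a value of -0.60. Kcnj8, the channel pore that pairs with Abcc9 and was picked out after its values were seen, was read from 6 and 11 counts in the IP libraries and from 48 and 31 in the inputs, a value of -2.08 (SE 0.68, edgeR adjusted p = 0.0181). Among 19 further smooth muscle genes 2 rose and 3 fell (median -0.05). Mylk, the kinase that phosphorylates the light chain made by Myl9, stood at 5.32 and 5.71 CPM in IP and 15.8 and 14.6 CPM in input, a value of -1.46 (SE 0.18, edgeR adjusted p = 2.28e-06), on the same side as Myl9. Flna, an actin crosslinker, had a value of -1.03, and Mkl1, a cofactor of serum response factor, rose by 0.42.

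Markers of other cells in the tissue were read for comparison. Of all genes tested 23.4% rose and 22.4% fell. From 5 CPM upward, where all 12 astrocyte genes lay, the shares were 34.3% and 20.5%. Below 5 CPM, where all tested red blood cell and choroid plexus genes lay, they were 3.77% and 25.9%. Among their genes in the files, Folr1 and Aqp1 of the choroid plexus list had 0 counts in both IP libraries, with 2 and 1 and with 1 and 4 counts in the inputs, and were not tested. In the fibroblast list 2 of 15 rose and 3 fell, with sums of 197 and 205 CPM in IP and 184 and 191 CPM in input, and Igf2 was its most abundant gene. In the astrocyte list 4 of 12 rose and 6 fell, with sums from 3851 to 4195 CPM in IP and from 4205 to 4210 CPM in input, led by Slc1a2. In the microglia and macrophage list 1 of 9 rose and 2 fell, with sums from 57.5 to 65.0 CPM over both groups, led by Csf1r. Of the 7 red blood cell markers 4 were in the files, and these 4 fell, with sums of 2.34 and 4.30 CPM in IP and 12.3 and 13.6 CPM in input, led by Hbb-bs, and in the choroid plexus list 0 of 4 tested rose and 2 fell (0 and 2 at an unadjusted p of 0.05, 0 and 1 with DESeq2), with sums of 4.45 and 5.11 CPM against 8.19 and 8.99 CPM, led by Kl. The red blood cell sum was thus lower in IP, beside the falls of Higd1b and Abcb1a, and its part in those results was not tested.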

How the data were processed

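The authors deposited 1 file per library with unnormalised counts of reads by gene. Per the submitters' processing notes the tools were STAR 2.0.0e and HTSeq, with mm10 as the build. Annotation, strand setting and kit were not given in the sources used here. Library sizes omit the 6 lines that name no gene, which held 7.31% to 14.9% (no feature), 1.54% to 5.09% (ambiguous) and 30.7% to 38.0% (not unique) of records.

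The comparison of IP with input used edgeR 4.0.16 (R 4.3.3) with TMM, filterByExpr (minimum count 10, minimum total 15), the two-sided quasi-likelihood test with no block, Benjamini-Hochberg adjustment over all 16600 genes, threshold 0.05. Standard errors are the log2 fold change divided by the root of the F statistic, and intervals use the fit's degrees of freedom. These were 2 residual and a median of 16.8 prior degrees of freedom, so the spread used for a gene rested mostly on that pooled over genes. Replicates differed far beyond sampling noise (chi-square per gene 21.2 and 14.5). The test was tried on simulated counts with known fold changes.

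All 32 members were described. Of each other vascular list, the text names up to 3 called genes, those of largest absolute change whose mean reached 5 CPM, and besides them Kcnj8, chosen after its values were seen. Of marker lists of other cells, counts, sums and the most abundant gene were given. The result of 1 such list is not reported here. Members and lists were chosen with earlier results of these data known, so counts over them are descriptions. Alternatives were DESeq2 1.42.0, its size factors, library sizes alone, no filter or a stricter filter, a replicate block, each library left out, and removal of Rn45s with Kalrn, Atg7, Lrguk, Yeats2 and Ubr3. Gene models came from GENCODE vM21, start-site windows from RefSeq (GRCm38.p6), and copies were sought with blastn 2.17.0.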

Additional observations from a re-analysis of the deposited data

How the results depend on the processing

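Of 328 values of single members under 11 alternatives, 279 kept their direction and side of the threshold, 15 lost and 13 gained a call, and 21 changed sign without a call on either side. Of the 8 called members, Bsg, Myh11 and Myl9 passed under every alternative that tested them. With DESeq2 the endothelial genes that rose numbered 2. Scaling by library size, without TMM, gave 2151 higher and 5910 lower genes in all; 1 endothelial gene rose and 3 fell, 6 mural genes fell and the mural median was -0.76. The stricter filter tested only 8 members, of which 2 endothelial genes rose and 0 fell and 0 mural genes rose, with medians of 0.62 and -0.13. Leaving out each library gave a mural median from -0.70 to -0.48, and fewer of all genes rose and fewer fell than with every library in.

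Values that changed sign, none called, were with library sizes alone Tek (-0.018), Kdr (-0.22), Esam (-0.0085), Vwf (-0.10), Rgs5 (-0.26), Vtn (-0.20) and Acta2 (-0.032), with the stricter filter Rgs5 (-0.13) and Vtn (-0.069), and with the replicate block Kdr (-0.0037), Vwf (-0.12) and Rgs5 (-0.019). With each library left out, Flt1 ranged from -0.63 to 0.018, Kdr from -0.41 to 0.41, Vwf from -1.28 to 0.88, Rgs5 from -0.33 to 0.30, Vtn from -0.071 to 0.20, Notch3 from -0.85 to 0.37 and Acta2 from -0.13 to 0.73. The cause was not tested. The replicate block called 4314 genes higher and 4037 lower in all, 4 endothelial genes higher and 1 lower, and 1 mural gene higher and 3 lower. The labels do not say that a number marks a shared animal, and the differences between numbers 2 and 4 correlated between IP and input at 0.0939 across all genes, 0.194 across genes of at least 5 CPM and -0.14 across members. Depth limits the members below 5 CPM most.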

Other observations

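Genes that mark positions along the vessel tree and the basement membrane were also read. Among all genes tested, 23.4% rose and 22.4% fell. Of 11 zonation genes tested 3 rose and 1 fell (median 0.11, and -0.15 with library sizes alone). Nr2f2, a transcription factor of veins that some interneurons also express, rose by 0.75 on the log2 scale, and Vcam1, an adhesion molecule, by 0.55, whereas Rgcc, a capillary gene, had a value of -0.92. Of 12 basement membrane genes other than collagens 2 rose and 1 fell (median -0.12). Sparc, a matrix protein that glia also make, rose by 0.29, and Lama4, a laminin chain of vessels, had a value of -0.89.

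Input 2 stood above input 4, and IP 2 above IP 4, in most endothelial genes. The median ratio of input 2 to input 4 was 1.31 over the 18 endothelial genes, with input 2 higher in 12, and 1.09 over the 14 mural genes, with input 2 higher in 9. Over all genes tested it was 1.001, with input 2 higher in 50.2%. Scaling holds that median near 1, and genes of like level were not compared, so it does not show how far genes at large differ. The corresponding ratios of IP 2 to IP 4 were 1.13 and 1.06, with IP 2 higher in 13 endothelial and 8 mural genes. Over all genes tested IP 2 was higher in 49.6%. These ratios were noticed after the data were seen and have no test.

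Across the 32 members, which share libraries and are not independent, the log2 fold change went with mean level (Pearson's r = 0.57, Spearman's rho = 0.54). With transcript length the values were 0.23 and 0.13 over all members, -0.11 and -0.18 over endothelial genes and 0.56 and 0.44 over mural genes. With GC content they were 0.064 and 0.085 over all members, 0.40 and 0.41 over endothelial genes and -0.28 and -0.31 over mural genes. These values describe the members only.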
